A study of Miniopterus schreibersii with 14 samples.

Results

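The long bones of the palm of the wing and of the sole of the foot were compared in fetuses of a bent-wing bat (Miniopterus schreibersii) with 1 mRNA-seq library on each side. One library was made from the metacarpals of forelimb digits II-V and the other from the metatarsals of hindlimb digits I-V, so the thumb side is absent from the forelimb library while digit I is part of the hindlimb one. The table holds 64618 assembled transcript components, named by assembly number. The components described are the 13615 (21.1% of all) whose 2 fetal scores averaged 50 or more, where the score is a normalized read count rounded to a whole number. They carried 96.8% of the summed score of the metacarpals and 97.2% of that of the metatarsals.

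The bat wing is a hand. The metacarpals and phalanges of digits II-V lengthen greatly during fetal life and come to carry the wing membrane, while the thumb stays short and clawed and the foot keeps short, free toes of similar length. Metapodials, as metacarpals and metatarsals are jointly called, begin as rods of cartilage that grow by division and enlargement of chondrocytes at their growth plates and are later replaced by bone, so a fetal metapodial can hold cartilage, early bone, the tissue sheath around it and vessels.

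The other 12 libraries of the study are earlier. At stage S14 the anterior, middle and posterior parts of the forelimb bud and of the hindlimb bud were sampled. At stages S15-17 the forelimb gave 4 samples, namely digit I, digits II-V, the interdigital tissue next to digit I and that from digit II to digit V, and the hindlimb gave digits I-V and their interdigital tissue. The labels name no treatment or genotype for any of the 14, and no part has a repeat library. The labels call the 2 latest libraries fetal without a numbered stage, and do not give how many embryos each held or whether the metacarpals and metatarsals came from the same embryo. A difference between the limbs therefore cannot be told apart from a difference between embryos, dissections or libraries. The values below are sizes with counting error only, and no p-value compares the 2 fetal libraries.

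No gene names could be put to the components. The files do not pair them with genes, and 0 of the identifiers were found in the RefSeq table of 22775 genes used here. Cartilage, bone, skin, muscle and blood markers could thus not be read, and the labelled tissue was not checked against them. Some components may be only a fragment of a transcript, and fewer cells of a type cannot be told apart from less RNA per cell.

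In each library the scores fell on rounded multiples of 1 step, which is the score of 1 read, so whole reads could be recovered. The metacarpal library held 7648427 reads at a step of 1.29 and the metatarsal library 6535667 reads at a step of 1.61, against 4550754 to 7648427 reads over all 14 libraries. The 10 most abundant components took 13.26% of the metacarpal and 12.64% of the metatarsal score, and 4.902% to 5.81% in the earlier libraries. Both fetal libraries thus stood apart from all 12 earlier ones in how much of their RNA was in a few components, and differed little from each other in this respect.

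Most components had similar levels in the 2 sets of bones. The difference on the scale of log2(score + 1), metacarpals minus metatarsals, had a median of -0.012 with quartiles of -0.33 and 0.30. Scores were within 2-fold of each other for 11625 components (85.4%). More than 2-fold higher in the metacarpals were 969 components (7.12%), and more than 2-fold higher in the metatarsals were 1021 (7.5%). Past 4-fold, 345 components (2.53%) were higher in the metacarpals and 425 (3.12%) in the metatarsals. With an exact 95% interval of the read ratio lying wholly past 4-fold, which covers counting error only, the counts were 210 and 317.

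The size of these differences was several times what the number of reads gives. The root mean square log2 difference was 0.938, and counting error alone would give 0.203. The range from the 5th to the 95th percentile ran from -1.39 to 1.31. In 3337 components the 95% counting interval lay on the side of the metacarpals, and in 3749 on the side of the metatarsals.

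The minimum score bears on these counts, because a component near it can pass through its higher library alone. Both scores were at least 50 in 12487 components, and among these 115 were past 4-fold in the metacarpals and 230 in the metatarsals. Of the 408 components with a mean score from 50 to 55, just inside the minimum, 41 (10%) were past 4-fold in either direction. Just outside it, from 45 to 50, this held for 42 of 431 (9.74%).

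**Figure D1:**
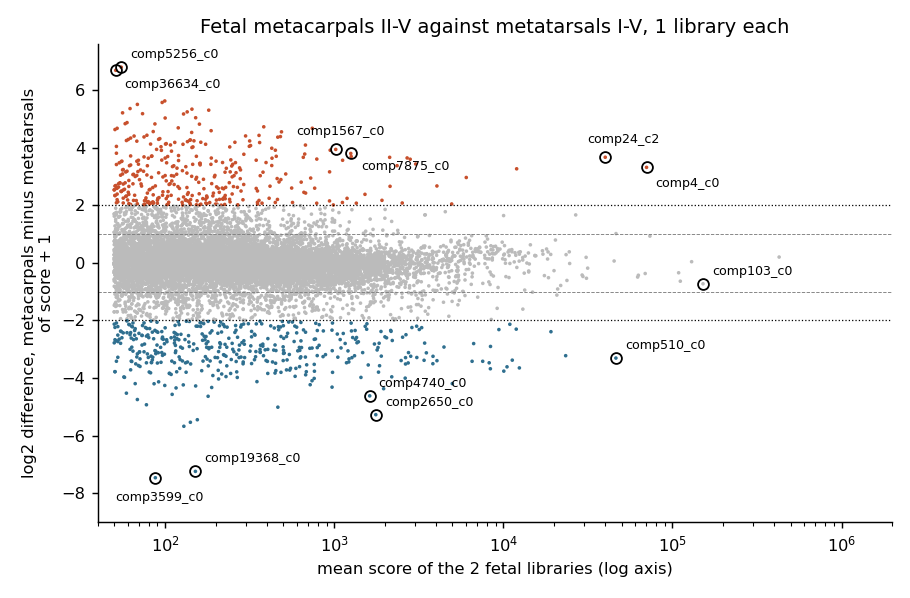
Each point is 1 of 13615 components, with the mean of its 2 fetal scores on a log axis and its log2(score + 1) difference, metacarpals minus metatarsals, on the vertical axis; orange and blue points are past 4-fold (345 and 425), dashed lines mark 2-fold and dotted lines 4-fold. The named components are circled; at high scores more points lie below the lower dotted line than above the upper one.

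The counts on the 2 sides differed by abundance. Among the 2620 components with a mean score of 50 to 100, 129 (4.92%) were past 4-fold in the metacarpals and 105 (4.01%) in the metatarsals. Among the 4657 with a mean of 100 to 300 they were 145 (3.11%) and 135 (2.9%). Among the 4572 with a mean of 300 to 1000 the counts were 49 (1.07%) and 104 (2.27%). In the 403 most abundant components, at 3000 and over, they were 7 (1.74%) and 28 (6.95%). A component past 4-fold in the lowest class has its lower score under 50, so it passed the minimum through its higher library alone, and no direction is read from that class. In the classes from 300 upwards more components were past 4-fold on the foot side. In these classes too a component past 4-fold is placed mainly by its higher library, so the counts are a description.

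Over the 1766 components with a mean of at least 1000, 22 were past 4-fold in the metacarpals and 81 in the metatarsals. This split was 21 and 84 with upper-quartile scaling, 22 and 81 with the median difference set to 0, and 22 and 80 with recovered reads set to equal library totals. At 2-fold the counts were 51 and 181, and the 3 other scalings gave 44 and 202, 51 and 175, and 61 and 154. The excess on the metatarsal side of the abundant components was therefore present under each of the 4 scalings. Abundance here is the mean of the same 2 scores, so this excess is a description. In contrast, the split over all components past 4-fold moved with the minimum score: the metacarpal side held 44.8% of them at a minimum of 50, 63.3% with no minimum and 33.1% at a minimum of 200. With the minimum set on the mean of all 14 libraries, 244 components were past 4-fold on each side, and 809 on the metacarpal and 754 on the metatarsal side past 2-fold.

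**Figure D2:**
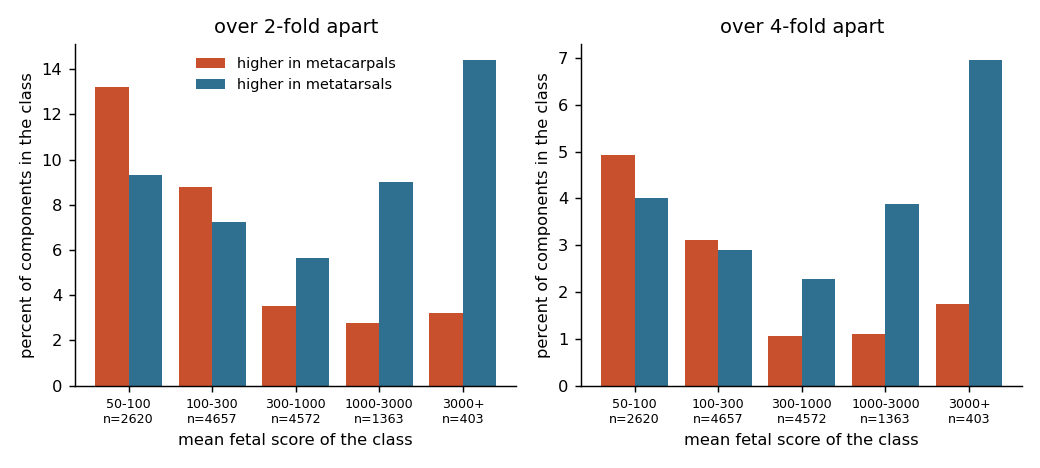
Bars give the percent of components in each class of mean fetal score that were over 2-fold (left) or over 4-fold (right) higher in the metacarpals (orange) or metatarsals (blue), with the number of components under each class. At 3000 and over, 14.4% were over 2-fold higher in the metatarsals and 3.23% in the metacarpals.

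The components past 4-fold held a small part of the RNA. The 345 on the metacarpal side summed to 4.12% of the metacarpal score and 0.437% of the metatarsal score. The 425 on the metatarsal side summed to 7.41% of the metatarsal score and 0.994% of the metacarpal score.

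A pair of components held much of the metacarpal score in these 345. The component comp4_c0 had a score of 127724 in the metacarpals and 12821 in the metatarsals, a ratio of reads at equal scaling of 9.96 (95% counting interval 9.74 to 10.2). It was 1.3% of the whole metacarpal score and 0.122% of the metatarsal score. In the 12 earlier libraries its score ran from 3423 to 9941 with a median of 4980. Both fetal scores thus lay above every earlier one, the metatarsal score by little and the metacarpal score by far. The second, comp24_c2, followed the same course, with 74249 in the metacarpals, 5842 in the metatarsals and 1259 to 5767 (median 2642) in the earlier libraries. Its ratio was 12.7 (12.3 to 13.1). In the S15-17 digits neither leaned to the wing: comp4_c0 scored 5561 in forelimb digits II-V and 6439 in hindlimb digits I-V, and comp24_c2 scored 2783 and 3545.

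On the metatarsal side the largest gap in score was that of comp510_c0, with 8511 in the metacarpals and 84088 in the metatarsals. Its ratio was 9.88 in favour of the metatarsals (9.63 to 10.1), and it made up 0.8% of the metatarsal and 0.0863% of the metacarpal score. The earlier libraries had 52 to 1189 (median 206), so both fetal bones were far above them. Forelimb digits II-V had 658 and hindlimb digits I-V had 1189, a smaller difference in the same direction. The next largest gap was that of comp103_c0, at 114264 in the metacarpals and 188867 in the metatarsals. That gap was a ratio of 1.65 (1.64 to 1.67), in a component that had 5271 to 16487 (median 8960) before the fetal stage and was far above this range in both fetal bones.

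Among the components with a mean fetal score of at least 1000, those with the largest ratios had low scores before. The largest on the metacarpal side was comp1567_c0, with 1917 in the metacarpals and 124 in the metatarsals, a ratio of 15.5 (12.3 to 19.7). Its earlier scores were 15 to 69. Next was comp7875_c0, with 2338 and 167, a ratio of 14.0 (11.5 to 17.2). Its earlier scores were 0 to 14, so that the metatarsals too lay above every earlier library.

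On the metatarsal side comp2650_c0 had 88 in the metacarpals and 3433 in the metatarsals, a ratio of 39.2 in favour of the metatarsals (30.8 to 50.6). The component comp4740_c0 had 126 and 3115, a ratio of 24.7 (20.1 to 30.5). Neither had passed 14 in any earlier library: comp2650_c0 had 0 to 11 and comp4740_c0 had 1 to 14. All 4 of these abundant components were therefore higher in both fetal bones than in any bud, digit or interdigital library, and differed in how far above the wing and the foot each stood.

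The largest ratios of all came from components near 0 in 1 library. The component comp3599_c0 had 0 in the metacarpals and 175 in the metatarsals, which is at least 45.3-fold higher when the metacarpal library is set at the floor of 3 reads. The exact 95% counting interval of the ratio starts lower, at 36.2-fold. It had 1659, 1848 and 2097 in the 3 hindlimb bud libraries, 0, 2 and 2 in the forelimb buds, 1636 and 1200 in hindlimb digits and interdigital tissue, and 5 to 26 in the 4 forelimb libraries of S15-17. Its hindlimb and forelimb scores did not overlap at any stage, and its fetal score in the foot was below every earlier hindlimb score. In contrast comp19368_c0, with 1 and 301, had not passed 84 in an earlier library. Its ratio of 233 rests on 1 read in the metacarpals (41.4 to 9264).

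On the metacarpal side comp5256_c0 had 110 in the metacarpals and 0 in the metatarsals, at least 22.7-fold higher with the same floor for the metatarsal library, with an exact 95% counting interval from 18.1-fold. Its side had differed earlier: the hindlimb buds had 458 to 1356 and the forelimb buds 202 to 384, while forelimb digits II-V had 77 and hindlimb digits I-V 19, a forelimb to hindlimb ratio of 4.06 (2.06 to 8.72). The interdigital tissue of the same parts had 30 and 22. The component comp36634_c0 had 102 and 0, at least 21.1-fold higher by the floor (interval from 16.8-fold), and was at 0 in all 12 earlier libraries. These 4 components thus show different courses, from a limb difference already present in the bud to a transcript seen in 1 library of the 14.

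**Figure D3:**
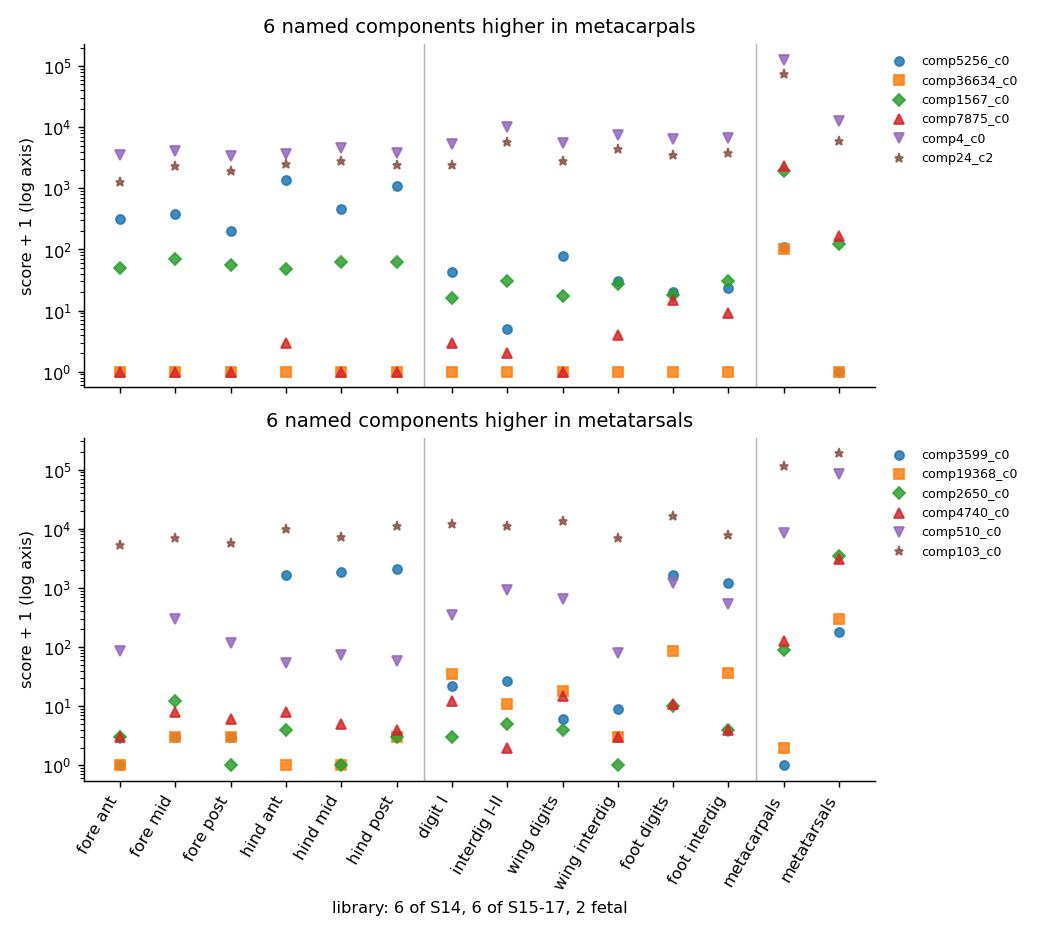
Scores plus 1 on a log axis in all 14 libraries (6 of S14, 6 of S15-17, 2 fetal, divided by grey lines) for the 6 named components higher in the metacarpals (top) and the 6 higher in the metatarsals (bottom), 1 library per column. Most rise from the earlier libraries to both fetal ones, while comp3599_c0 is high in every hindlimb library and comp5256_c0 is highest in the buds.

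These courses were then counted over all components past 4-fold. Many of them passed the minimum score through 1 bone only (both scores were at least 50 in 115 of 345 and 230 of 425). Low scores elsewhere are thus in part what the selection gives, and the values are a description. The 345 on the metacarpal side had a median of 22.6 for their mean over the 12 earlier libraries, against 300 for the 12845 components within 4-fold. Their median fetal scores were 229 in the metacarpals and 29 in the metatarsals. The 425 on the metatarsal side had a median of 9.42 before, and median fetal scores of 55 in the metacarpals and 428 in the metatarsals. In all 12 earlier libraries, 75 of the 345 (21.7%) and 127 of the 425 (29.9%) stayed under a score of 10. Of the components within 4-fold, 1.3% did so. A score of at least 50 in some earlier library was reached by 169 (49%) and 162 (38.1%), and by 89.3% of all 13615.

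The fetal scores of these components were then placed against the range of the 12 earlier libraries. Of the 425 on the metatarsal side, 396 (93.2%) had a metatarsal score more than 2-fold above every earlier library, against 16.6% of all 13615. Of the 345 on the metacarpal side, 233 (67.5%) had a metacarpal score that far above, against 14.6% of all. Both bones were more than 2-fold above every earlier library in 225 of the 425 (52.9%), in 103 of the 345 (29.9%) and in 11.8% of all. Both bones were thus above the earlier range in most of the metatarsal set and in a minority of the metacarpal set. A 4-fold difference itself favours a high score in the bone that names the set, so these shares are a description only.

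Positions below the earlier range were also counted. In 84 of the 345 (24.3%) the metatarsal score was more than 2-fold below every earlier library, against 9.09% of all. In 15 of the 425 (3.53%) the metacarpal score was that far below, against 6.5% of all. A 4-fold difference towards the metacarpals itself favours a low foot score, so the larger share on the metacarpal side is a description only.

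A closer reference is the digits of the same limb at S15-17. On the metatarsal side, 270 components (63.5%) were more than 2-fold above the matched digits in both fetal bones, and on the metacarpal side 139 (40.3%), against 17.5% of all. In 120 (28.2%) on the metatarsal side only the metatarsals were above, with the metacarpals within 2-fold (5.96% of all). In 78 (22.6%) on the metacarpal side only the metacarpals were above (4.66% of all). These classes are ones that a 4-fold difference between the bones favours.

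In 63 of the 345 (18.3%) the metacarpals stayed within 2-fold of the wing digits while the metatarsals lay more than 2-fold below the foot digits, against 6.8% of all. In 48 (13.9%) the metacarpals were above and the metatarsals below (0.411% of all). The class with metacarpals below the wing digits and metatarsals within 2-fold of the foot digits held 15 of the 425 (3.53%), close to its 3.68% over all components.

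In the S15-17 digits the 2 sets differed little from each other in the limb they leaned to. Each small difference between them below was towards the limb of the fetal bone, and none was tested. Of the 345 components past 4-fold in the metacarpals, 108 (31.3%) were higher in forelimb digits II-V than in hindlimb digits I-V, and of the 425 past 4-fold in the metatarsals it was 129 (30.4%), against 41.3% of all 13615. The rest of each set were lower or equal, and scores in the digits were low for many. The median digit log2 difference, forelimb minus hindlimb, was -0.08 in the metacarpal set, -0.18 in the metatarsal set and -0.05 over all. In the same order, 8.41%, 6.82% and 2.18% were over 2-fold higher in forelimb digits. Over 2-fold higher in hindlimb digits were 14.5%, 15.1% and 2.56%. Across the 13615 components the digit and fetal differences had a correlation of r = 0.051, and r = 0.095 across the 11498 with a mean digit score of at least 50. These are correlations across components of single libraries, which are not independent replicates. The fetal difference had r = 0.084, -0.092 and 0.054 with the anterior, middle and posterior bud differences and r = 0.097 with the interdigital difference, while the digit and interdigital differences had r = 0.207 with each other.

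Of the 11498 components with a mean digit score of at least 50, 56 were past 2-fold in both the digit and the fetal pair. The direction was the same in 33, of which 11 were higher in the forelimb and 22 in the hindlimb, and opposite in 23. For scale, 0.836% of the 12797 components with a digit pair mean of at least 50 were past 2-fold in forelimb digits and 1.02% in hindlimb digits. In the fetal pair the shares past 2-fold were 7.12% and 7.5%. Whether 56 is more than these shares would give, and whether 33 differs from 23, was not tested.

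In these libraries the fetal bones stood farther apart than each of the 5 earlier forelimb and hindlimb pairs. Over components with a pair mean of at least 50, the root mean square log2 difference was 0.538 in the anterior, 0.421 in the middle and 0.499 in the posterior bud, 0.386 in the digits, 0.538 in the interdigital tissue and 0.938 in the fetal pair. Counting error alone would give 0.190 to 0.209 in the 6 pairs. The fetal value was 0.461 above the mean of the 5 earlier pairs, 0.477 ± 0.070 (SD, n = 5). With 1 fetal pair against 5 no test can pass 0.05: the exact two-sided permutation test over the 6 pairs gave p = 0.167, the smallest it allows, so the gap is a description. Over 1 set of components, with a mean of at least 50 over all 14 libraries, the gap was smaller, at 0.281, in the same direction. Components past 4-fold made up 0.0781% (digits) to 0.288% (middle bud) on the forelimb side of the 5 earlier pairs, and 0.0703% (digits) to 0.491% (anterior bud) on the hindlimb side.

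**Figure D4:**
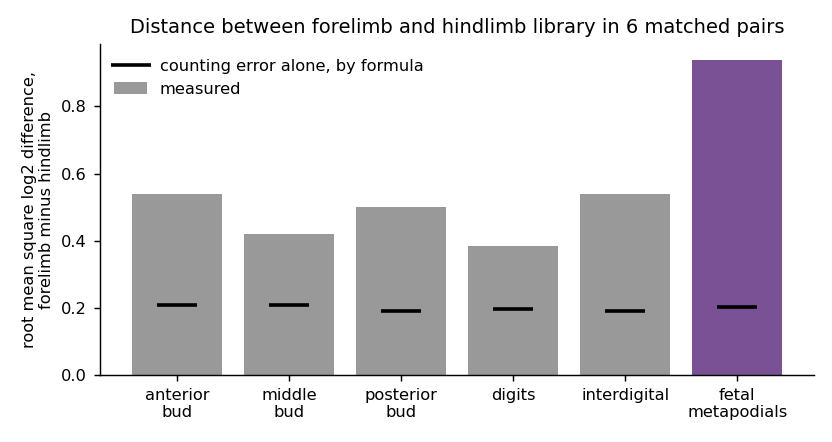
Bars give the root mean square log2 difference between forelimb and hindlimb library in 6 matched pairs (1 library per limb), and black marks the value that counting error alone would give. The 5 earlier pairs lie between 0.386 and 0.538, and the fetal pair is at 0.938.

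A limb difference shared by the 5 earlier pairs was asked for next, without the fetal libraries, so that the fetal values are a separate reading. In limma with the matched part as a block, 29 of 19529 components (0.148%) passed a Benjamini-Hochberg adjusted p of 0.05, with 12 higher in the forelimb and 17 in the hindlimb. The p-values measure the spread between different parts of the limb, as no part had a repeat. At an unadjusted p of 0.05 there were 1608. The count fell to 16 without the middle bud pair and rose to 58 without the interdigital pair.

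Most of the 29 kept their side in the fetal bones, at smaller median differences. They were chosen for their difference over the earlier pairs, which itself favours a smaller one outside the fit, so the medians are a description. Of the 12 forelimb components, 8 were higher in the metacarpals and 4 in the metatarsals, with a median fetal log2 difference of 0.36 against 1.79 over the 5 earlier pairs. Of the 17 hindlimb components, 12 were higher in the metatarsals, 4 in the metacarpals and 1 equal, with a median of -1.37 against -2.40. Over all 19529 components tested, 49.4% were higher in the metacarpals and 47.4% in the metatarsals, with a median of 0.00. Past 2-fold in the fetal pair, 4 of the 12 went the same way and 2 the opposite way. Of the 17, 10 went the same way and 2 the opposite way. Only 6 of the 12 and 9 of the 17 reached the minimum fetal score of 50.

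The components with the largest limb differences were among those that kept them. For comp3938_c0 the log2 difference over the 5 earlier pairs was 7.41 (SE 0.50, limma adjusted p = 8e-05), and the metacarpals had 144 and the metatarsals 3, a ratio of 44.9 (12.1 to 375) that rests on 2 metatarsal reads. For comp3599_c0, described above, the difference was -8.91 (SE 0.41, limma adjusted p = 2.3e-06). The other two were under the minimum score in the fetal bones. The component comp14042_c0, at 4.95 (SE 0.46, limma adjusted p = 0.0011), had 81 in the metacarpals and 0 in the metatarsals, at least 16.8-fold higher by the floor of 3 reads (interval from 13.3-fold). The component comp13294_c0, at -5.20 (SE 0.50, limma adjusted p = 0.0013), had 0 and 16, at least 4.16-fold higher in the metatarsals by the floor (interval from 2.8-fold, on 10 reads). These 4 components were each near 0 in 1 fetal bone and present in the other, on the side of the limb where they had been found before.

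**Figure D5:**
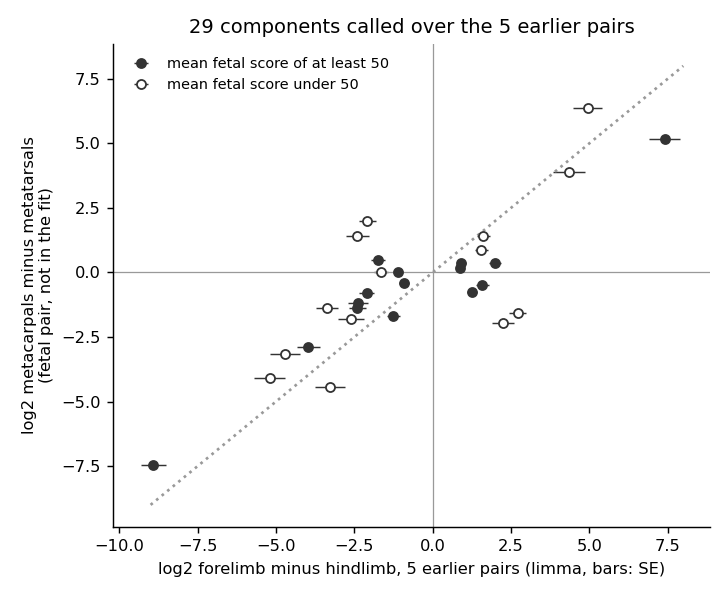
Each of the 29 components called over the 5 earlier pairs is placed by its limma log2 difference there (bars, SE) and by its fetal log2(score + 1) difference, which took no part in the fit; filled points reach a mean fetal score of 50 and the dotted line marks equal values. Points in the lower left and upper right quadrants kept their side (8 of 12 forelimb and 12 of 17 hindlimb components).

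Lists made from the 12 earlier libraries alone were then read in the fetal pair, each taken at a mean log2 difference of at least 1. For comparison, of the 12842 components kept in the earlier libraries and with a mean fetal score of at least 50, 48.8% were higher in the metacarpals and 50.5% in the metatarsals, with a median of -0.01. These shares move with the scaling of the libraries: 42.4% were higher in the metacarpals with upper-quartile scaling, 50.4% with the median difference at 0 and 58.1% with recovered reads at equal totals. The share of a list under any scaling is therefore to be read against that of all kept components under the same scaling. Past 2-fold as deposited, all kept components had 746 (5.81%) on the metacarpal and 726 (5.65%) on the metatarsal side. Each list below exceeded both shares, with 7.3% to 27.4% on the metacarpal and 7.14% to 26.5% on the metatarsal side. A larger share past 2-fold was thus common to the lists and is not a trait of any single list.

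Limb lists from the digits were close to even in the fetal bones. Of the 187 components higher in wing than in foot digits, 54% were higher in the metacarpals (median 0.10). Past 2-fold, 29 (15.5%) were on the metacarpal and 31 (16.6%) on the metatarsal side. Of the 203 higher in foot digits, 53.7% were higher in the metatarsals (median -0.09), with 39 (19.2%) and 43 (21.2%) past 2-fold. With recovered reads that last list had 50.7% higher in the metacarpals, still under the 58.1% of all kept components. The list of 308 components higher in wing than in foot interdigital tissue had 48.4% higher in the metacarpals, and 56.3% with recovered reads, where all kept components are at 58.1%. Taken at a mean difference of at least 4-fold, the 2 wing lists were short and leaned to the metacarpals, with 10 of 12 for the digits (83.3%) and 11 of 15 for the interdigital tissue (73.3%).

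The hindlimb lists from interdigital tissue and bud had more components on the metatarsal side. Of the 476 components higher in foot interdigital tissue, 59% were higher in the metatarsals (median -0.17). Past 2-fold, 46 (9.66%) were on the metacarpal and 101 (21.2%) on the metatarsal side. Of the 139 higher in the hindlimb bud in its 3 parts, 64% were higher in the metatarsals (median -0.17), with 16 (11.5%) and 24 (17.3%) past 2-fold. The 108 higher in the forelimb bud had 48.1% higher in the metacarpals (median -0.07), and 51.9% with recovered reads, where all kept components are at 58.1%. Past 2-fold the forelimb bud list too had more components on the metatarsal side, 22 (20.4%) against 14 (13%) on the metacarpal side. Whether the forelimb and hindlimb lists differ in how far they lean was not tested.

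The list of digit components leaned to the foot. Of the 178 components higher in digits than in interdigital tissue in 3 regions, 69.7% were higher in the metatarsals, with a median of -0.34. Past 2-fold, 13 (7.3%) were on the metacarpal against 44 (24.7%) on the metatarsal side. The share higher in the metacarpals was 28.7% as deposited, and 26.4%, 30.9% and 35.8% under the 3 other scalings, in each case below that of all kept components. This list shared 95 components, 30% of its full length, with the list higher in foot interdigital tissue (7.38% of that one). The opposite list, higher in interdigital tissue, had 42 components, of which 54.8% were higher in the metacarpals (median 0.15).

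Components of the early limb bud leaned to the wing bones. Of the 252 components that every S14 library held above every S15-17 library, 59.9% were higher in the metacarpals, with a median of 0.29. Past 2-fold, 69 (27.4%) were on the metacarpal against 20 (7.94%) on the metatarsal side. Under the 3 other scalings the share was 57.4%, 59.9% and 67.5%, above that of all kept components each time. The 603 components higher in every S15-17 library than in every S14 library had 44.9% higher in the metacarpals (median -0.06), and 52.2% with recovered reads, in both cases below all kept components. Past 2-fold, however, this list also had more components on the metacarpal side, 70 (11.6%) against 55 (9.12%). All kept components had 746 and 726. Components higher in the bud than at S15-17 were thus more often at a higher level in the fetal metacarpals than in the metatarsals.

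Of the lists that set the thumb against the long digits, that of the long digits leaned to the metatarsals and that of the thumb was mixed. Of the 224 components higher in forelimb digit I than in forelimb digits II-V, 53.1% were higher in the metatarsals, the library that includes digit I (median -0.08). This was near the 50.5% of all kept components. With recovered reads 50.7% were higher in the metacarpals, below the 58.1% of all kept components. Past 2-fold this list went the other way, with 39 components (17.4%) on the metacarpal and 32 (14.3%) on the metatarsal side. Past 4-fold the counts were 18 and 7, where all 12842 kept components had 223 and 208. Formed at a mean difference of at least 4-fold, the list held 21 components, of which 15 (71.4%) were higher in the metacarpals. Of the 358 higher in digits II-V than in digit I, 61.2% were higher in the metatarsals (median -0.23). Past 2-fold, 46 (12.8%) were on the metacarpal and 95 (26.5%) on the metatarsal side. The share higher in the metacarpals was 38.5%, and 36.1%, 38.8% and 44.4% under the 3 other scalings. The lists of the anterior and posterior bud were close to even, with 45.7% of 127 and 48.6% of 173 higher in the metacarpals, and with recovered reads 50% and 52.6% against 58.1% of all kept components.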

How the data were processed

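The deposited table gives a score per component and library; per the submitters' processing notes CASAVA 1.8, RSEM and edgeR were used, without role or order, and the assembly, aligner and normalization are not given in the sources used here. The labels' protocols name TruSeq libraries from DNase-treated total RNA. The step of 1 read was found from scores up to 2000 (search 1.2 to 3.0), after which 99.981% to 100% of nonzero scores per library equalled a rounded multiple; 44.8% to 77.6% of whole numbers would match by spacing alone. Differences are of log2(score + 1). Ratio intervals are exact conditional binomial (Clopper-Pearson) at 95%, and a library at 0 takes a floor of 3 reads; both cover counting error only, as PCR copies are not independent molecules. Components were named by rule, at most 2 per direction: the largest log2 difference, the same at a mean of at least 1000, the largest score gap, opposite sides in digits and fetal bones, and the largest called over the earlier pairs. Limma 3.58.1 (R 4.3.3, trend) used log2(score + 1), components with a mean of at least 10 over the 12 earlier libraries, and Benjamini-Hochberg adjustment. Other steps used Python 3.11.15 with scipy 1.17.1. The recovery of the step, the ratio interval and the limma fit were tested on simulated data. Components, lists and rules were chosen with earlier results of these data known.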

Additional observations from a re-analysis of the deposited data

Results flagged for a closer look

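With no minimum on the digit score, 314 components were past 2-fold in both the S15-17 digit pair and the fetal pair. The limb differences had the same sign in 159 of them and opposite signs in 155. With a mean digit score of at least 50 these counts were 33 and 23. The 4 components named here are those of opposite sign with the largest differences, 2 for each fetal side. Each side of each difference is 1 library, and the change of side was not tested. The log2 difference of comp7875_c0 was 3.80 in the fetal pair, with 2338 in the metacarpals and 167 in the metatarsals, and -3.91 in the digits, where it had 0 reads in the forelimb and 8 in the hindlimb. For comp23108_c0 the fetal difference was 5.17, with 251 and 6, while the digits had 5 in the forelimb and 46 in the hindlimb (-2.97).

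On the metatarsal side comp18974_c0 had a fetal difference of -3.45, with 15 in the metacarpals and 174 in the metatarsals. In the digits it had 4 reads in the forelimb and 0 in the hindlimb. For comp19279_c0 the fetal difference was -3.28, with 9 and 96, and the digits had 24 and 3 (2.64). The digit values of comp7875_c0 and comp18974_c0 rest on 8 and 4 reads.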

How the results depend on the processing

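The minimum score set the counts most. In the order metacarpals and metatarsals past 4-fold, then past 2-fold, the counts were 3149, 1825, 8478 and 8631 with no minimum (root mean square 1.246) and 838, 810, 2368 and 2145 at a minimum of 10. A minimum of 100 gave 216 past 4-fold and 622 past 2-fold in the metacarpals, and one of 200 gave 117, 236, 358 and 552. A minimum over all 14 libraries gave 244 past 4-fold in the metatarsals and 244 in the metacarpals, and 754 and 809 past 2-fold. With the near end of the counting interval past the fold, the metacarpal counts were 210 and 607. The median difference was -0.012 as deposited, -0.078 with upper-quartile scaling and 0.082 with recovered reads.

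The share higher in the metacarpals fell to 39.8% with upper-quartile scaling in the list higher after S14. Recovered reads gave 56.3% (wing interdigital), 46.8% (foot interdigital), 44.9% (hindlimb bud), 52.2% (higher after S14), 67.5% (higher at S14) and 44.4% (digits II-V over I). Lists at a 4-fold difference gave 83.3% of 12 (wing digits), 73.3% of 15 (wing interdigital), 35.1% of 74 (foot interdigital), 66.7% of 21 (higher at S14) and 71.4% of 21 (digit I). A minimum of 200 gave 42.4% (wing interdigital), 31.1% (foot interdigital), 17.7% (hindlimb bud), 27.3% (digits II-V over I) and 31.7% (anterior bud). All kept components were at 45.8% with that minimum, at 42.4% with upper-quartile scaling and at 58.1% with recovered reads. The cause of each was not tested.

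The limma count of 29 was 9 without a filter and 10 without the block. Leaving out each pair in turn gave 16 to 58. The other settings gave 24 to 35. By replicate number, no paired analysis was possible because each group holds 1 library, and the 5 pairs in limma were matched by anatomy instead. The fetal libraries have no repeat, so their spread was not measured.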

Other observations

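Components of 1 assembly number can be variants or pieces of 1 transcript. Of the 13615 components, 786 shared their assembly number with another of them, in 370 numbers. In 5 of these numbers 2 or more components were past 2-fold in the fetal pair, and in 3 of the 5 they all went in 1 direction.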
